A study of Mus musculus with 2 samples.

Results

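Immediate early genes are switched on within minutes of a signal and without new protein synthesis, mostly through growth factor and stress kinases that act on factors already bound at their promoters. Fos, Fosb, Jun, Junb and Jund encode subunits of the transcription factor AP-1, a dimer of leucine zipper proteins, and Atf3 encodes a stress-induced factor of the same zipper class. Egr1 encodes a zinc finger factor, Ier2 a short-lived nuclear protein, and Dusp1 a phosphatase that switches the kinases off again. Their messengers decay quickly, and they are known to rise while a tissue is taken apart into single cells as well as in response to signals in the living animal. The libraries described here hold dissociated cells only, so both origins cannot be told apart in any value below.

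The 9 genes were taken by name from the matrices, which list 27998 genes, and were read in every annotated cell type. The data are droplet single-cell libraries of jejunal crypts from 2 male mice, 12 months old, of the label strain C57BL6/2J, that lack the microRNA miR-375 in the whole body (375KO) through a CRISPR/Cas9 deletion crossed to B6 albino mice. Each mouse gave 1 library, called mouse 1 and mouse 2 here, from crypts digested with dispase. No wild-type library was analysed here, so nothing below compares genotypes. The authors named 10 cell types: stem, transit-amplifying (TA), secretory progenitor, goblet progenitor, goblet, enteroendocrine (EEC), tuft, enterocyte and Paneth cells, and intraepithelial lymphocytes (IEL), of which 9 types are epithelial.

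Mouse 1 gave 2082 kept cells with a median of 16475 UMIs (barcoded RNA molecules counted once each) and mouse 2 gave 1193 with a median of 15232. No cell barcode was shared between the libraries. The libraries stood apart in their mitochondrial share, with a median of 10.2% of UMIs per cell in mouse 1 and 5.55% in mouse 2. Cells per type and mouse ranged from 18 IEL in mouse 2 to 931 enterocytes in mouse 1. Of 60 markers of the 10 types, 46 were highest in their own type in both mice. All 6 goblet, EEC, tuft, enterocyte, Paneth and IEL markers were. The shortfall lay in TA cells (2 of 6), secretory progenitors (3 of 6), stem cells (5 of 6) and goblet progenitors (0 of 6, among them Muc2 and Tff3). Markers of other cells were low in the epithelial types: the fibroblast genes Col1a2, Dcn and Pdgfra and the endothelial gene Kdr were at 0 in all 18 epithelial sums, and summed smooth muscle, red cell, endothelial, B cell and glial and neuronal markers reached at most 0.623, 2.42, 14.3, 16.1 and 23.2 CPM (counts per 1000000 UMIs). The summed myeloid list reached 1497, nearly all of it Cd74 in enterocytes, while C1qa was at 0 in 14 of the 18 sums.

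Upstream sequence of 7 of the 9 genes was found in RefSeq on the GRCm38.p6 build. The stretch from 200 to 51 bases before the start site is shown for 4 of them whose windows hold the letters TGACG, the core of the cAMP response element (CRE) through which CREB and ATF factors act. Capitals mark TGACG or the full CRE, TGACGTCA, on the gene's strand.
Fos, chr12:85473690-85473839, plus strand: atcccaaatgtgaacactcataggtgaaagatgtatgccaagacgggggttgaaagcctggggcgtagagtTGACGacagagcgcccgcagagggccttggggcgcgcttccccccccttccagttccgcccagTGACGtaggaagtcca
Fosb, chr7:19310096-19310245, minus strand: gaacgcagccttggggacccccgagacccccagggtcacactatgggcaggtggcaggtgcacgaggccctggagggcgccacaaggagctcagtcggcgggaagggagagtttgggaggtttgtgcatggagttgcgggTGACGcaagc
Junb, chr8:84978799-84978948, minus strand: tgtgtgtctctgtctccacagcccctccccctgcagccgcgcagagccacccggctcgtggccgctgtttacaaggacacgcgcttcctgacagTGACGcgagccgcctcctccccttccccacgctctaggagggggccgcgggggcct
Dusp1, chr17:26508523-26508672, minus strand: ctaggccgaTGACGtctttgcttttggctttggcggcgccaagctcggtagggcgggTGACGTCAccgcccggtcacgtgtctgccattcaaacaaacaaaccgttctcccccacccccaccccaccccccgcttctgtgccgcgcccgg

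The search covered 250 bases before each start site on both strands. TGACG was found in 5 of the 7 windows (Fos, Fosb, Junb, Atf3 and Dusp1), and 17.8% of all 32851 promoters of that length hold it. The full CRE, which contains TGACG, was found in Dusp1 and is held by 1.55% of promoters. The GC box GGGCGG was also found in 5 of the 7 windows, against 32.7% of promoters, and CCAAT in Jun and Junb, against 33.8%. TATAA stood in the Fos window, against 22.8%. Neither TGANTCA, the letters of the AP-1 site (6.75% of promoters), nor the CArG box by its usual consensus (1.47%) was in these windows. These matches describe letters and are not binding sites measured here. The windows stand before RefSeq starts, which do not all lie at the ends of the gene intervals given next. The Jund start lies upstream of its interval, with the stretch at chr8:70697539-70697688, and the Dusp1 and Atf3 windows lie inside theirs. Absence of a motif refers to these windows only. The genes are spread over the genome: Atf3 lies on chr1:191170296-191218039, Jun on chr4:95049034-95052222, Fosb on chr7:19302696-19310051, Jund, Ier2 and Junb on chr8:70698949-70700616, chr8:84661331-84662852 and chr8:84974484-84978718, Fos on chr12:85473890-85477273, Dusp1 on chr17:26505590-26562128 and Egr1 on chromosome 18 (GENCODE M21, mm10).

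Levels are given as CPM: the UMIs of a gene summed over the cells of 1 type in 1 mouse, per 1000000 UMIs of that sum, mouse 1 first. Intervals in brackets are exact Poisson 95% intervals and cover counting error only. Goblet and EEC cells held the highest levels of most of the 9 genes, and stem and TA cells held low ones. Goblet cells make the mucus and EEC the hormones of the crypt, and stem and TA cells divide.

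Fos, the founding AP-1 subunit, was at 725 (698 to 753) and 458 (431 to 487) CPM in goblet cells. It was at 441 and 385 CPM in EEC, 468 and 177 in IEL, 237 and 172 in goblet progenitors, and 200.2 and 90.7 in enterocytes. Secretory progenitors held 67.3 and 40.2 CPM, TA cells 45.7 and 61.9, tuft cells 38.7 and 60.7, and Paneth cells 41.0 and 82.5. Stem cells were lowest at 15.7 (10.4 to 22.7) and 37.4 (28.5 to 48.1). Both goblet values lay above every value of the other epithelial types, and the goblet level was 46.2 times the stem level in mouse 1 and 12.3 times in mouse 2.

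Fosb, a close relative of Fos, followed the same outline at lower counts. It was at 250.4 and 91.2 CPM in goblet cells, 179 and 97.5 in EEC and 64.8 and 46.2 in goblet progenitors. Stem cells held 3.92 and 1.87 CPM, from 7 and 3 UMIs. In secretory progenitors it was at 6.52 CPM in mouse 1, and no UMI was found among the 224086 of mouse 2, where a floor of 3 counts is 13.4 CPM and the exact Poisson upper limit 16.5. Atf3 and Dusp1 were at 0 in the same sum.

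Atf3, the stress-induced factor, was at 225 and 92.5 CPM in goblet cells, 135 and 27.9 in EEC, 56.8 and 26.4 in goblet progenitors and 52.8 and 11.0 in enterocytes. In TA cells it was at 5.45 and 5.95 CPM. In stem cells it rested on 3 UMIs in mouse 1 and 1 in mouse 2, or 1.68 (0.347 to 4.91) and 0.623 (0.0158 to 3.47) CPM. Goblet and stem values were thus far apart in both mice, although the stem counts are too few to fix the ratio.

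Dusp1, the kinase phosphatase, was at 162 and 76.9 CPM in goblet cells, 96.7 and 125 in EEC and 114 and 88.7 in IEL. These 3 types overlapped. In stem, TA and tuft cells it ran from 2.42 to 8.73 CPM. Egr1, the zinc finger factor, was at 348 and 181 CPM in EEC, 274 and 123 in goblet cells and 97.5 and 75.6 in goblet progenitors. It was at 12.3 and 31.8 in stem cells and 41.9 and 8.87 in IEL, and tuft cells held 5 and 14 UMIs of it.

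Jun, the partner of the Fos proteins, was at 574 and 385 CPM in EEC and 601 and 265 in goblet cells, and at 104 and 69.2 in stem cells. Ier2, the nuclear protein, was at 482 and 543 CPM in EEC and 549 and 419 in goblet cells, and stem cells held 143 and 196, next to 141 and 113 in enterocytes. Stem cells were thus not at the low end for Ier2. Goblet to stem ratios were 5.77 and 3.83 for Jun and 3.84 and 2.14 for Ier2.

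Jund, the AP-1 subunit that is known as the least inducible of the 3 Jun genes, varied least. It was at 613 and 636 CPM in goblet cells, 496 and 710.3 in EEC, 421 and 572 in tuft cells and 446 and 501 in IEL. TA cells held 223 and 227 CPM and stem cells 201 and 239. Goblet cells stood 3.06 and 2.66 times above stem cells. By the mean of both mice tuft cells ranked behind goblet cells and EEC for Jund and last for Egr1 and Dusp1.

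Junb, the Jun gene whose product restrains Jun in many cells, was the one gene highest in IEL by the mean of both mice, at 689 and 373 CPM, next to 401 and 427 in EEC. The EEC values lay between the IEL values, and in mouse 2 EEC were above IEL. Goblet cells held 241 and 205, enterocytes 143 and 106, and stem cells 25.2 and 35.5.

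**Figure D1:**
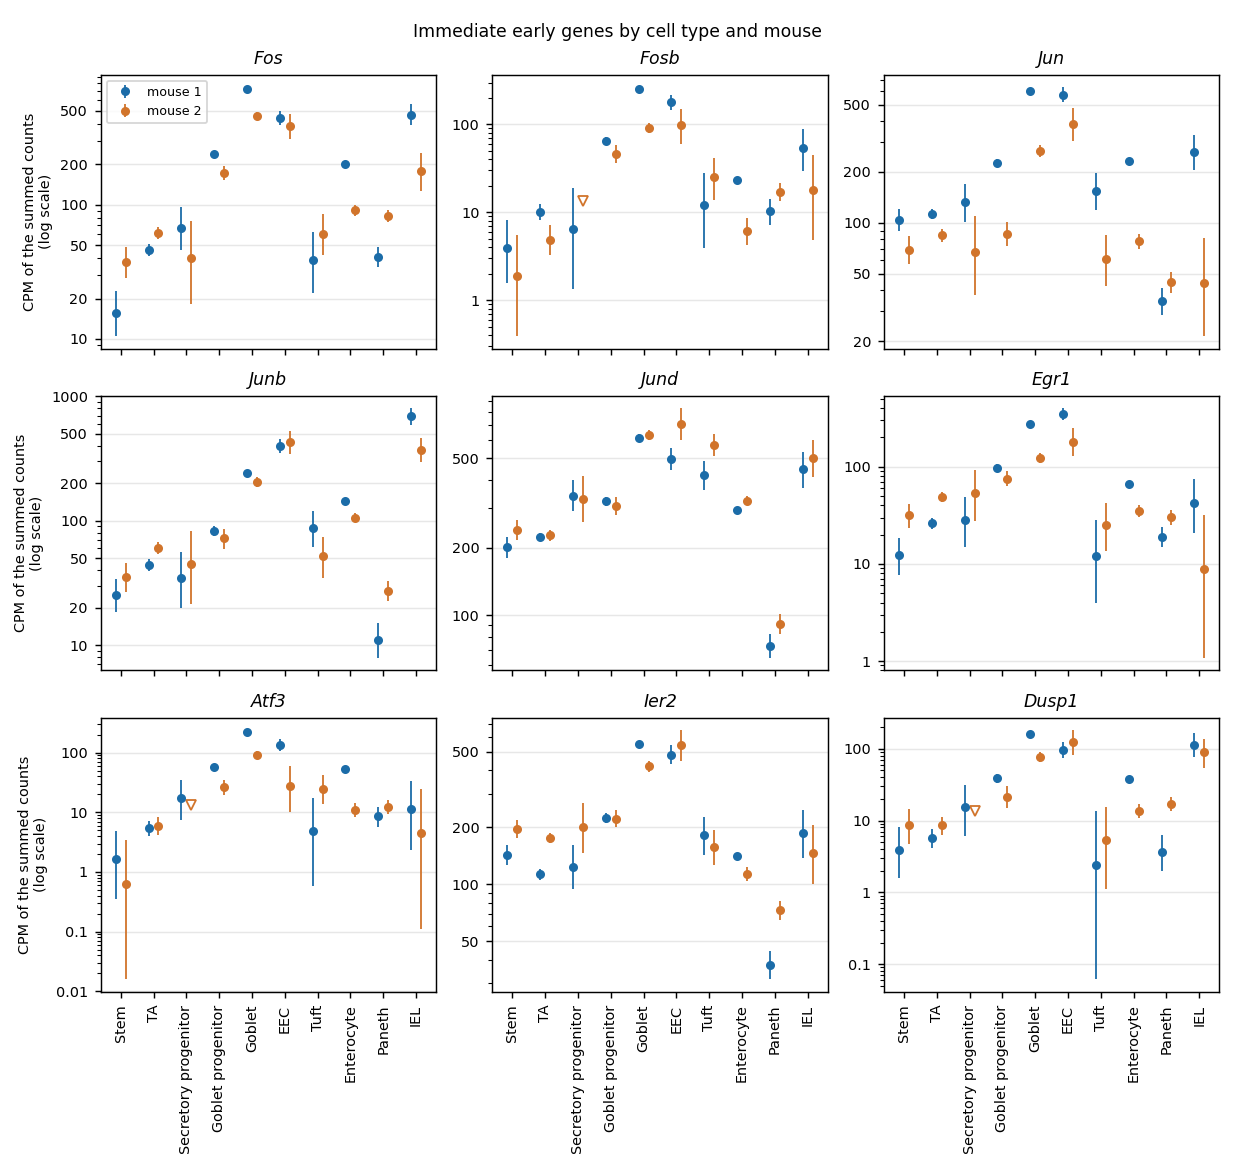
CPM of each gene (log scale) in the summed counts of each cell type, mouse 1 in blue and mouse 2 in orange, with exact Poisson 95% intervals; open triangles mark counts of 0, drawn at the limit that 3 counts give. Goblet and EEC points sit high in most panels (Fos 725 and 458 CPM in goblet cells) and stem points low (15.7 and 37.4), while the mean of Junb is highest in IEL (689 and 373), with EEC above IEL in mouse 2 (427).

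To test these differences, UMI counts were summed per type and mouse and each type was set in edgeR against the other epithelial types, averaged with equal weight, with the sums scaled by TMM, a method that sets the bulk of genes equal between sums. Adjusted p values are Benjamini-Hochberg values over all 11402 genes tested, and a gene is called when its value is below 0.05. The cell types were drawn by the authors from the same cells, and the p values rest on 2 mice and 1 shared spread per gene. All 9 genes passed the filter on low counts.

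In goblet cells all 9 genes were higher, against 16.4% of all genes, and none was lower, against 9.95%. The log2 fold changes were 3.50 for Atf3 (SE 0.43), 3.45 for Fosb (SE 0.36), 3.09 for Dusp1 (SE 0.48), 2.80 for Fos (SE 0.37) and 2.16 for Egr1 (SE 0.40). Jun, Junb, Ier2 and Jund followed at 1.84, 1.82, 1.62 and 1.20, and adjusted p in edgeR ran from 3.95e-10 for Jund to 0.00293 for Egr1. The median was 2.16 for the 9 genes and -0.03 for all genes. Each gene had the same sign in either mouse alone, and all 9 calls held under each of the 9 other settings tested.

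In EEC 6 genes were higher, against 12.6% of all genes, and none was lower, against 6.91%. Fosb rose by 2.45 (SE 0.53), Junb by 2.09 (SE 0.33), Egr1 by 1.97 (SE 0.51), Jun by 1.34 (SE 0.39), Ier2 by 0.97 (SE 0.26) and Jund by 0.39 (SE 0.14) on the log2 scale. Dusp1 at 2.15, Atf3 at 1.83 and Fos at 1.501 missed the threshold with adjusted p of 0.0840, 0.104 and 0.0544 in edgeR. The calls of Jun and Jund were lost without the mouse term, with adjusted p of 0.0962 and 0.300, that of Jund also with no filter on low counts (0.355), and all 9 genes were called when Paneth cells were left out.

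In stem cells 5 genes were lower, against 8.95% of all genes: Atf3 (-4.83, SE 1.24), Fosb (-3.51, SE 0.99), Fos (-2.65, SE 0.63), Junb (-1.85, SE 0.42) and Jund (-0.93, SE 0.15). Egr1 at -1.83, Dusp1 at -2.11, Jun at -1.12 and Ier2 at -0.54 were not called, with adjusted p from 0.0722 to 0.198. Fosb lost its call under a stricter cell filter, at least 2000 genes and at most 10% mitochondrial UMIs (adjusted p in edgeR 0.125). The fits of Atf3 and Fosb in stem cells rest on 4 and 10 UMIs, so their size depends on how such low counts are handled.

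In TA cells 6 genes were lower, against 12.2% of all genes. Fos fell by 1.64 (SE 0.51), Junb by 1.11 (SE 0.34), Jund by 1.03 (SE 0.14), Ier2 by 0.95 (SE 0.27), Atf3 by 2.42 (SE 0.79) and Fosb by 2.11 (SE 0.69) on the log2 scale. Jund alone kept its call under all 9 other settings, and the other 5 had adjusted p between 0.0193 and 0.0453 in edgeR. Between stem and TA cells themselves none of the 9 genes was called lower or higher in edgeR. Of all 11402 genes tested, 275 (2.41%) were lower and 158 higher in stem cells. With so few calls, 0 of 9 does not set these genes apart from other genes. None of the 9 had an unadjusted p below 0.05 either, and the estimates ran from -2.14 (SE 1.71) for Atf3 to 0.36 (SE 0.34) for Ier2.

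Junb was higher in IEL by 2.36 (SE 0.33, adjusted p in edgeR 0.000236) and was the single member called there, against 16.4% of all genes. The value was 2.85 in mouse 1 alone and 1.75 in mouse 2 alone, where a single cell weighs on the IEL sum. Junb was also the single call in enterocytes, at 0.78 (SE 0.29), against 29.5% of all genes, and its value there fell to 0.11 with an adjusted p of 0.804 under the stricter cell filter. In goblet progenitors Jund was lower (-0.47, SE 0.14), against 2.57% of all genes, with none higher, against 7.55%, and this value was 0.04 with plain library sizes. No gene was called in secretory progenitors, where 2.86% of all genes were higher and 0.886% lower, or in tuft cells, where 9.34% were higher and 4.98% lower, in edgeR. At an unadjusted p below 0.05, 3 members were lower in each of these types, against 6.58% of all genes in secretory progenitors and 10.7% in tuft cells. DESeq2 called 3 lower in secretory progenitors, against 0.966% of all genes, and 4 lower in tuft cells, against 4.95%.

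**Figure D2:**
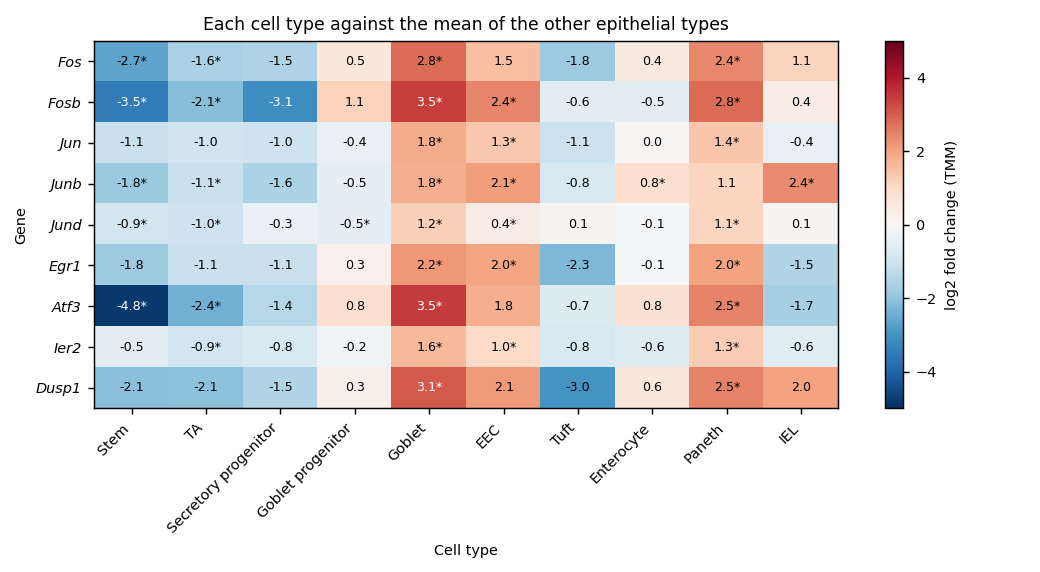
Log2 fold change of each gene (rows) in each cell type (columns) against the average of all other epithelial types under TMM scaling; an asterisk marks an adjusted p below 0.05. The goblet column is called for all 9 genes, and the Paneth column, called for 8, turns negative for all 8 with plain library sizes.

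No direction can be given for Paneth cells, the defensin and lysozyme makers at the crypt base. There 10 genes held 82.6% and 81.9% of all UMIs, against at most 25.7% in any other type, and the TMM factors were 0.151 and 0.118, against 0.919 to 1.54 elsewhere. With TMM, 8 genes were higher (not Junb), against 15.0% of all genes, for example Fos by 2.40 (SE 0.43). With plain library sizes all 8 turned negative, from -0.44 for Fosb to -2.15 for Jund, and Jun, Junb, Jund, Egr1 and Ier2 were called lower. The median of all genes was then at -3.16 in Paneth cells, below all 8 values, and between -0.09 and 0.71 in the other types. With TMM the medians ran from -0.06 to 0.05. The calls with plain library sizes are given without a share of all genes and are not read as a fall of these genes. Fos stood at 1.85 and 6.67 UMIs per Paneth cell and 9.90 and 7.43 per goblet cell.

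A ratio of UMIs between genes of 1 sum does not move with either scaling. Fos UMIs per Jund UMI were 1.18 and 0.721 in goblet cells, 0.560 and 0.902 in Paneth cells, 0.890 and 0.542 in EEC and 1.05 and 0.354 in IEL. The ratio was 0.0782 and 0.157 in stem cells, 0.0920 and 0.106 in tuft cells, 0.197 and 0.122 in secretory progenitors and 0.205 and 0.273 in TA cells. Goblet progenitors had 0.737 and 0.560 and enterocytes 0.684 and 0.281. Paneth cells, like goblet progenitors and the enterocytes and IEL of mouse 1, thus lay within the range of goblet cells and EEC. Stem, tuft, secretory progenitor and TA cells, and the enterocytes and IEL of mouse 2, lay below it. Junb UMIs per Jun UMI were 2.62 and 8.40 in IEL and from 0.242 to 1.36 in the 9 epithelial types, with no overlap. Within IEL of mouse 1, cluster 11 held 148 Junb and 9 Jun UMIs and cluster 14 held 33 and 60, so the IEL ratio of that mouse came from cluster 11.

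All 45 pairs of types were also compared, and 24.4% of all gene tests over these pairs were called. With Paneth cells set apart because of the scaling, the 9 remaining types give each gene 8 neighbours in the order of mean CPM, or 72 pairs over the 9 genes, of which 5 were called. Jun and Ier2 were higher in goblet cells than in goblet progenitors, Fos and Jund were higher in enterocytes than in TA cells, and Jund was higher in goblet cells than in EEC, although its plain CPM overlapped there. With plain library sizes, chosen after seeing the data, the calls of Fos between enterocytes and TA cells (adjusted p in edgeR 0.0562) and of Jund between goblet cells and EEC (0.811) were lost. The other neighbour pairs were not called, which does not show that their levels were equal.

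Goblet progenitors, named by the authors as the precursors of goblet cells, stood below them. In this pair 8 genes were lower in the progenitors, against 13.9% of all genes, and the differences ran from -1.48 (SE 0.18) for Jund to -2.44 (SE 0.66) for Dusp1. Egr1 differed by -1.68 (SE 0.58) and was not called (adjusted p 0.0643 in edgeR). With plain library sizes the call of Fos was lost as well (-1.52, adjusted p 0.0515). In plain CPM the goblet level was 3.06 and 2.67 times that of the progenitors for Fos, 4.20 and 3.56 for Dusp1, and 1.91 and 2.07 for Jund. All 9 genes were lower in stem cells than in EEC, against 13.1% of all genes.

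Between goblet cells and EEC, Jund was the single one of the 9 genes called (0.72, SE 0.18), and this call depended on the scaling. Of all 11402 genes tested, 1451 were called higher and 1521 lower in goblet cells for this pair. With plain library sizes Jund differed by 0.07 (SE 0.19), and Junb was called instead, lower in goblet cells (-0.89, SE 0.32, adjusted p in edgeR 0.0415). With TMM the others ranged from -0.24 (SE 0.42) for Junb to 1.48 (SE 0.69) for Atf3. These 8 missed the threshold, which does not show that the types were alike.

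Shares of cells with at least 1 UMI were read after thinning every cell to 5000 UMIs, which left out cells below that depth: 39 of 50 IEL in mouse 1 and at most 3 cells of any other type and mouse. Intervals are exact binomial 95% intervals for counting error. Fos was found in 73.9% (68.3 to 79.0) and 76.1% (68.1 to 82.9) of goblet cells and in 5.88% (2.57 to 11.3) and 12.0% (6.70 to 19.3) of stem cells. Before thinning these shares were 85.2% and 87.0% in goblet cells (median 13649 and 15709 UMIs a cell) and 11.5% and 22.2% in stem cells (12282 and 12559). No cell type is known to lack Fos, so the lowest type serves as the background here. Dusp1 was found in 42.0% and 25.4% of goblet cells, in 0.735% and 2.56% of stem cells and in 0 of 39 and 0 of 38 tuft cells, for which the exact binomial upper limits are 9.03% and 9.25%. Before thinning these shares of Dusp1 were 55.2% and 42.0%, 2.88% and 5.13%, and 2.50% and 7.89%. Jund was found in at least 60.3% of the cells of every type and mouse except Paneth cells (26.9% and 33.3%), with 89.1% and 93.5% of goblet cells and 60.3% and 67.5% of stem cells. Before thinning it was found in 83.3% and 96.3% of Paneth cells. As 10 genes held 82.6% and 81.9% of Paneth UMIs, thinning left few UMIs for other genes there.

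The 9 genes summed gave a median of 15 and 10 UMIs per goblet cell and 16 and 13 per EEC, out of 5000. Stem and TA cells had a median of 2 in both mice. At least 5 of the 9 genes were found together in 64.1% and 55.1% of goblet cells, 60.4% and 65.0% of EEC, 26.6% and 8.64% of enterocytes, and 0.735% and 3.42% of stem cells. The level was spread over the goblet population: the 10% of cells with the most held 26.2% and 25.1% of these UMIs, and 5 of 276 and 1 of 138 goblet cells had none. This was not particular to goblet cells: the same share of cells held 26.3% and 23.7% in EEC and 27.9% and 32.2% in stem cells. In TA cells it held 36.1% and 39.7%. With a median of 2 UMIs, counting error alone raises this share, so the types are not ranked by it.

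**Figure D3:**
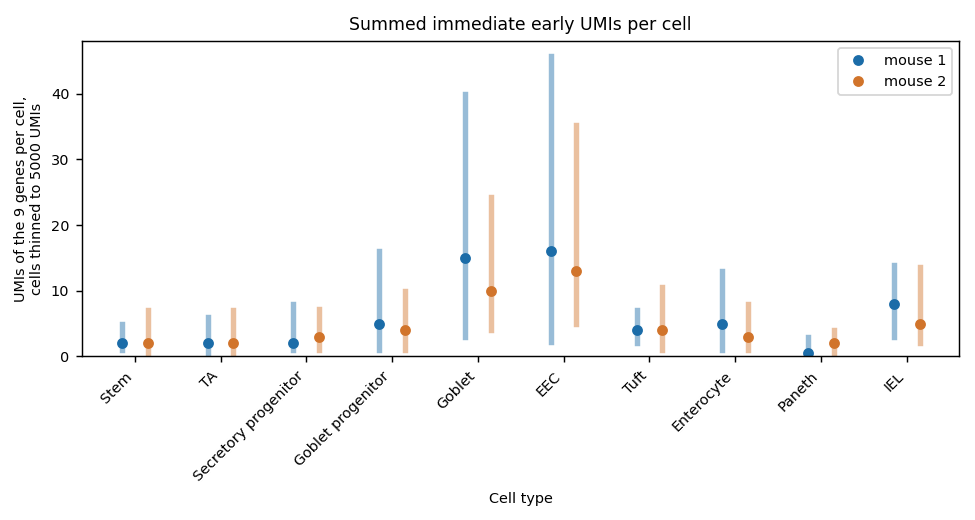
UMIs of the 9 genes summed per cell after thinning to 5000 UMIs, by cell type and mouse (mouse 1 blue, mouse 2 orange), as the median (point) and the range from the 10th to the 90th percentile (bar). Goblet cells (medians 15 and 10) and EEC (16 and 13) lie above stem and TA cells (2 in both mice), and IEL of mouse 1 rest on 11 cells.

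The genes moved together across types. Over the 20 sums, with the mean of each mouse taken out and TMM scaling, Pearson r between members ran from 0.507 (Junb and Egr1) to 0.943 (Jun and Ier2) with a median of 0.786 over 36 pairs. These sums share 2 libraries and differ in depth, so the values are descriptions. The median was 0.750 without Paneth cells. Within goblet cells, over single thinned cells, Spearman rho had a median of 0.429 over the 36 pairs in mouse 1 (276 cells) and 0.288 in mouse 2 (138 cells), the highest being 0.646 for Fos and Atf3 in mouse 1. In enterocytes, TA cells and goblet progenitors the medians were lower, from 0.136 to 0.236. Counts were also sparser there: median summed UMIs per thinned cell were 5 and 3, 2 and 2, and 5 and 4, against 15 and 10 in goblet cells. The part of sparse counts in the lower rho was not tested.

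Outside the 9 genes, Klf2, a zinc finger factor that is itself an immediate early gene in several cell types, had the profile most like their mean over the 20 sums (r 0.870). It was followed by Spty2d1, Stim2, Plcb1, the long noncoding RNA Neat1 and Cdc42ep3, with r from 0.841 to 0.849. Neat1 was at 784 and 263 CPM in goblet cells and 69.0 and 46.1 in stem cells, while Plcb1 and Cdc42ep3 were at 0 in stem cells of both mice. The 20 sums include the 2 Paneth sums, whose levels depend on the scaling, and no likeness without them is given. By single members, Klf2 was closest to Fos (0.879) and Dusp1 (0.902), Mt3 to Fosb (0.904), Etnk1 to Jun (0.888), Rap1a to Junb (0.914), Selk to Jund (0.916), Tmem263 to Egr1 (0.871), Sec22b to Atf3 (0.841) and Aldh3b2 to Ier2 (0.881). Aldh3b2 was low, at 10.8 and 6.26 CPM in goblet cells.

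Another 5 lists of related genes were read in the same fit. Of 13 other immediate early transcription factors tested, 8 were higher and 0 lower in goblet cells, with a median log2 fold change of 1.38, and 5 were higher and 1 lower in EEC. IEL had 6 higher and 1 lower, with the largest median of all types, 2.34. Paneth cells had 6 higher and 1 lower under TMM scaling, and the remaining types had at most 3 higher. Of all genes, 16.4% were higher and 9.95% lower in goblet cells, 12.6% and 6.91% in EEC, 16.4% and 13.6% in IEL, and 15.0% and 10.4% in Paneth cells. Klf4, a goblet cell differentiation factor, rose by 3.27 and Klf2 by 3.77 in goblet cells. Nr4a2, a nuclear receptor, was 4.46 higher in EEC and stood at 0.57, not called, in goblet cells. Ier5 was higher in enterocytes (2.46) and IEL (2.47) and lower in EEC (-1.503), where Ier2 was higher.

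Of 25 immediate early effectors and feedback genes tested, 12 were higher and 0 lower in EEC, 8 and 2 in goblet cells, 14 and 3 in enterocytes, 11 and 1 in IEL, 2 and 9 in stem cells, and 1 and 10 in TA cells. The shares of all genes higher and lower were 12.6% and 6.91% in EEC, 16.4% and 9.95% in goblet cells, 29.5% and 21.5% in enterocytes, 16.4% and 13.6% in IEL, 13.6% and 8.95% in stem cells, and 17.0% and 12.2% in TA cells. Dusp5 and Dusp6, phosphatases of the ERK kinases, were higher in EEC by 3.38 and 2.32 and lower in stem cells, by -2.71 and -2.73. Stem levels were 0.561 and 1.87 CPM for Dusp5 and 0 and 2.49 for Dusp6, so the size of these falls rests on few UMIs. Btg2, which slows cell division, was higher in EEC (2.05) and goblet cells (1.77) and lower in stem (-2.08) and TA cells (-2.24). Gadd45a, a stress gene, was higher in EEC (1.74), tuft cells (1.77) and secretory progenitors (1.94) and stood at -0.14 in goblet cells.

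The other AP-1 and zipper partners and the kinases upstream were called in few cases in these types, and no result about either list is read from counts this small beside the same shares of all genes. Of 11 partners tested, 3 were higher and 0 lower in goblet cells, 0 were called in EEC, 2 were lower in stem cells, and 1 was higher and 1 lower in TA cells. Their median in goblet cells was -0.16, against the sign of the 3 calls. Mafk, a small Maf protein, was higher in goblet cells (1.36) and lower in stem cells (-1.94), Maff was higher in goblet cells (1.38), and Fosl2, a Fos relative, was higher in goblet cells (0.71) and enterocytes (0.86). Batf2 was higher in enterocytes (3.03). Maff is also counted among the other immediate early transcription factors. Of 19 upstream kinases and factors, 5 were higher and 0 lower in goblet cells, 3 were higher and 1 lower in EEC, stem cells had 0 higher and 1 lower, and TA cells 3 higher and 2 lower, with medians of -0.02, 0.12, -0.12 and -0.02. Mapk3, the ERK1 kinase, was higher in goblet cells (0.66) and lower in stem cells (-0.95), and Egfr was higher in EEC (1.36).

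Heat shock genes are often read beside immediate early genes in dissociated tissue. Of 11 tested, 1 was higher and 3 lower in goblet cells, with a median of -0.31, against 16.4% and 9.95% of all genes. Stem cells had 5 higher and 1 lower, against 13.6% and 8.95%, and TA cells 4 higher and 0 lower, against 17.0% and 12.2%. Hspd1 and Hspe1, mitochondrial chaperones, were higher in stem cells by 1.35 and 1.16, and Hsp90aa1 was lower in goblet cells (-0.72) and higher in EEC (0.52).

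Enterocytes differed between the mice, and in mouse 1 their levels moved with the mitochondrial share. Fos was at 200.2 CPM in enterocytes of mouse 1 and 90.7 in mouse 2, Jun at 234 and 77.6, Atf3 at 52.8 and 11.0 and Dusp1 at 38.1 and 13.6, and 8 of the 9 genes were higher in mouse 1. With 1 library a mouse, there is no test of this difference, and mouse and library cannot be told apart. Median mitochondrial shares of enterocytes were 13.2% and 7.59%. In mouse 1, the 781 enterocytes with over 10% mitochondrial UMIs had Fos at 224 (216 to 231) CPM and the 150 at or under 10% had 72.0 (62.7 to 82.3). Atf3 was at 60.7 against 9.05 and Dusp1 at 43.7 against 7.04, while Jund was at 293 and 289.9.

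In mouse 2 the groups lay closer: Fos was at 83.9 (65.4 to 106) CPM in 75 enterocytes over 10% and 91.9 (83.3 to 101) in 307 at or under it. Jun at 55.2 against 81.7 and Ier2 at 60.0 against 123 were lower in the cells over 10%, and Fosb at 20.4 against 3.54 was higher. Among cells at or under 10%, mouse 1 therefore lay below mouse 2 for Fos, Junb, Egr1, Atf3 and Dusp1, the reverse of the order over all enterocytes, although the counting intervals of Atf3 overlapped. The part of the mitochondrial share in these levels was not tested.

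The enterocyte clusters of the authors also differed, a comparison chosen after seeing the data, as was the split by mitochondrial share. In mouse 1, Fos was at 329, 232 and 245 CPM in clusters 1, 3 and 9, whose median mitochondrial shares were 15.1%, 13.7% and 12.3%, and at 61.7 and 70.6 in clusters 2 and 6, at 10.2% and 11.6%. In mouse 2 the same clusters stood at 144, 123 and 109 against 37.3 and 83.2 CPM. For Fos, the values of clusters 1, 3 and 9 were thus above those of 2 and 6 in both mice. In mouse 2, however, the counting intervals of clusters 3 (100.2 to 149) and 9 (88.7 to 133) overlapped that of cluster 6 (67.8 to 101). Other genes did not all follow in mouse 2: Ier2 was at 55.5, 116 and 93.6 CPM in clusters 1, 3 and 9 and 139.5 and 135 in 2 and 6, and Egr1 at 21.5, 36.9 and 40.6 against 34.1 and 41.2. Goblet cells did not follow the mitochondrial share in this way: in mouse 1 Fos was at 743 CPM in 255 goblet cells at or under 10% and 480.1 in 22 cells over it.

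**Figure D4:**
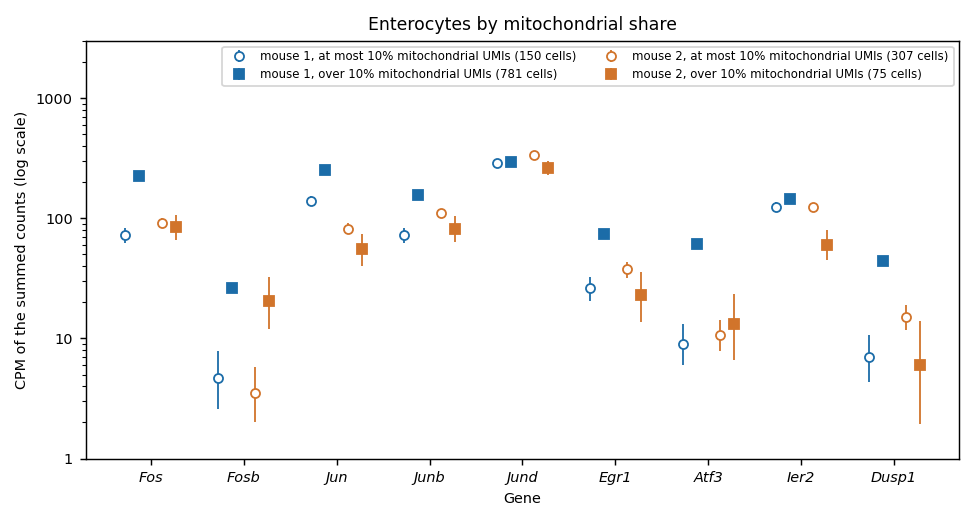
CPM of each gene (log scale) in enterocytes with at most 10% (open circles) and over 10% (filled squares) mitochondrial UMIs, mouse 1 in blue and mouse 2 in orange, with exact Poisson 95% intervals. In mouse 1 Fos is at 72.0 and 224 CPM and Jund at 289.9 and 293, and in mouse 2 Fos is at 91.9 and 83.9.

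In the other types the order of the mice was mixed. Mouse 1 was higher for 9 of 9 genes in goblet progenitors, of which Ier2 and Jund turned with TMM scaling (ratios 0.894 and 0.931), and 8 of 9 in goblet cells and IEL, for 3 in stem and tuft cells, for 2 in TA cells and for 0 in Paneth cells. By gene, Jun was higher in mouse 1 in 9 of the 10 types, with ratios from 0.770 to 5.92, and Jund in 2 of 10, with ratios from 0.699 to 1.05.

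IEL were 2 clusters of the authors whose sums differed for Junb and Jun in mouse 1. In mouse 1, Junb was at 912 (771 to 1071) CPM in the 28 cells of cluster 11 and 329 (227 to 462) in the 22 cells of cluster 14, while Jun was at 55.4 (25.3 to 105) and 599 (457 to 771). In mouse 2, the 13 cells of cluster 14 had Junb at 383 and Jun at 65.0 CPM. The high Jun of cluster 14 was thus seen in 1 mouse. It also leaned on 1 cell, which held 19 Jun UMIs after thinning. That cell lay in cluster 14, which held 60 Jun UMIs before thinning, as cluster 11 held only 9. The counting interval does not cover such spread between cells, so the Jun value is not read as a trait of the cluster.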

How the data were processed

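The authors aligned the 3′ reads (10x v2 chemistry) to mm10 with Cell Ranger 3.0.1 and deposited, per library, UMI counts per gene and barcode, and a table with the mitochondrial percent and the cell type of each kept cell. Cells under 1500 genes or over 25% mitochondrial reads and called doublets had been removed by the authors, whose methods name SoupX against free RNA without saying for which file. The submitters' notes name Seurat 3.2.1. Annotations were joined to the matrices by cell order, with matching UMI totals and gene numbers in 3275 of 3275. Another 2937 columns, of cells from another series, were not used.

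UMI counts were summed into 20 sums (10 cell types in 2 mice), filtered with filterByExpr, scaled with TMM and fitted with the quasi-likelihood test of edgeR 4.0.16 in R 4.3.3, with cell type and mouse as terms (the types of a mouse come from the same animal) and 9 residual degrees of freedom. Tests were two-sided. Values per mouse used a prior count of 2. DESeq2 1.42.0 served as an alternative. The fit was checked on simulated counts. The named genes are the 9 members, up to 4 genes of each list called in most types, the 6 genes most like the mean of the members and the 1 most like each member. The members and lists were chosen with earlier results of these data known. Intervals cover counting error only.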

Additional observations from a re-analysis of the deposited data

Results flagged for a closer look

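Barcodes that the authors did not keep also held these genes. In mouse 1, 5583 such barcodes with 20287851 UMIs, of which 32.9% were mitochondrial, had the 9 genes at a summed 1287 CPM, against 1228 CPM in the kept cells. In mouse 2, 58 such barcodes had 836 CPM, against 875 in the kept cells. Junb was at 274 CPM in the barcodes of mouse 1 that were not kept and 115 in its kept cells. They were flagged because they lie outside the cells analysed and hold far more than 3 counts.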

How the results depend on the processing

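The 25 higher and 12 lower calls over the 10 types became 23 to 36 higher and 10 to 35 lower calls under the 9 settings tested. Lower calls passed 1.5 times with no filter on low counts (35) and with DESeq2 (25). All goblet calls held, as did 4 of 6 in EEC, 4 of 5 in stem cells and 1 of 6 in TA cells. The IEL call of Junb could not be tested in the fit of the 9 epithelial types, which leaves IEL out. Under the stricter cell filter mouse 1 kept 7 IEL, below the least number of 10 cells in a sum, so that fit rested on mouse 2 alone. The call held under the other settings. No replicate block, that is no mouse term, gave 26 higher and 11 lower calls and lost 7. Plain library sizes, chosen after seeing the data, reversed 9 values: Atf3 (-0.74), Jun (-1.84), Fosb (-0.44), Jund (-2.15), Ier2 (-1.98), Fos (-0.85), Dusp1 (-0.76) and Egr1 (-1.23) in Paneth cells and Jund (0.045) in goblet progenitors. The mean of per-cell CPM reversed the same ones, at -0.34, -1.89, -0.40, -2.15, -1.95, -0.84, -0.97, -1.05 and 0.030. Without replicate 1 or 2 no test was possible. All 37 called values kept their sign, but 4 and 7 of them moved by more than the replicate spread. Examples of changed size without replicate 1 and without replicate 2 are Atf3 in TA cells (-1.34 and -2.59), Junb in enterocytes (0.33 and 1.20), Egr1 in goblet cells (1.34 and 2.89) and Dusp1 in Paneth cells (3.56 and 0.63). The mean of per-cell CPM moved another 15. TMM scaling turned 3 of 87 ratios between the mice. The stricter filter turned 8 of 76, 5 of them in enterocytes, and thinning 8 of 81. With 2 mice, genes at few UMIs in stem, tuft and secretory progenitor cells are limited by depth. The causes of these changes were not tested.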
